A study of Mus musculus with 30 samples.

Results

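The genes described here are those of arginine metabolism, with the inducible nitric oxide synthase Nos2 set against arginase 1, Arg1. They were chosen by symbol: Nos2, Arg1, Arg2, Slc7a2, Ass1 and Odc1, each read from its brightest row in the deposited expression table. Of these 6 genes, 5 carried a single symbol in the platform annotation and were measured, among 19479 genes so named, and Ass1 was not analysed here. The rows were the transcript clusters TC1100001171.mm.2 for Nos2, TC1000001897.mm.2 for Arg1, TC1200000715.mm.2 for Arg2, TC0800000482.mm.2 for Slc7a2 and TC1200000142.mm.2 for Odc1. No measured value was used in choosing them beyond the choice of the brightest row, and each of the 5 genes had only 1 row.

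Arginine is the substrate of competing enzymes in myeloid cells. Nitric oxide synthases turn it into nitric oxide and citrulline, whereas arginases split it into urea and ornithine, from which ornithine decarboxylase starts the synthesis of polyamines. In mouse macrophages Nos2 is a textbook marker of inflammatory activation and Arg1 of alternative activation, and infiltrating myeloid cells are known to express both after brain ischemia.

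The study asked how loss of the myeloid receptor TREM1 alters gene expression in the immune cells of the brain after stroke. Male C57BL/6 mice, 8-10 weeks of age, either wild type at the locus (TREM1+/+, WT) or lacking it (TREM1-/-, KO), had the middle cerebral artery occluded for 45 min and then reperfused for 48 h. Every animal had a stroke, so no group shows cells of an uninjured brain. Neutrophils were sorted from the ischemic hemisphere as CD45Hi CD11b+ Ly6G+ cells and macrophages as CD45Hi CD11b+ Ly6G- cells, and the labels give the gate for microglia as CD45Lo CD11b+ Ly6G+. Microglia are not known to carry Ly6G, so that sign may be a slip in the labels. The gate was taken as given, because Ly6g was not analysed here. In bulk RNA, neutrophils carried into the microglia arrays can be seen only through their other markers, whose levels are given below. There were 4 WT and 5 KO arrays of neutrophils, 3 WT and 6 KO arrays of macrophages, and 6 WT and 6 KO arrays of microglia, called biological replicates in the labels. The labels do not say how many animals went into an array, so the p-values measure the spread between these arrays.

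Expression was read on 30 Affymetrix Clariom HT arrays as 1 intensity per transcript cluster, and values below are log2 intensities, on which a difference of 1 is a factor of 2 (a log2 difference and a level are named as such throughout). The precision is limited by the number of arrays. Trem1 was 1.22 lower in KO than in WT neutrophils (log2 difference, adjusted p = 0.0361 in limma), 0.491 lower in macrophages and 1.25 lower in microglia, with adjusted p of 0.998 and 1.00 respectively. It still read between 15.12 and 16.39 in KO neutrophils. The labels do not give the deleted part of the gene, so this signal does not check the genotype. Defining markers were highest under their own labels: the mean log2 level of 11 measured neutrophil markers lay between 12.94 and 16.47 in the neutrophil arrays, and that of 8 microglial markers between 13.60 and 14.78 in the microglia arrays. The mean of 9 monocyte and macrophage markers was 14.92 to 15.30 in the macrophage arrays. It was also 11.89 to 13.52 in the neutrophil arrays, against 9.86 to 10.84 in the microglia arrays. Among the microglia, KO arrays 2 and 4 stood apart with neutrophil marker means of 10.30 and 8.07, against 6.41 to 6.87 in the WT microglia, and WT neutrophil array 4 stood apart in cartilage markers, at 9.52 against 7.68 for the mean of its group.

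Nos2, the gene of inducible nitric oxide synthase, was highest in neutrophils and lower in KO than in WT neutrophils. In WT neutrophils Nos2 read 8.58, 10.35, 9.81 and 9.63 on arrays 1 to 4, a mean log2 level of 9.59 ± 0.74 (SD, n = 4). In KO neutrophils it read 6.83, 9.09, 6.70, 6.83 and 8.51 on arrays 1 to 5, a mean of 7.59 ± 1.12 (SD, n = 5). Each of the 5 KO arrays was under the mean of the WT arrays, 3 of them close together and far under the WT range and the other 2, arrays 2 and 5, near the lowest WT array, so that the groups overlapped. The log2 difference was -2.00 (SE 0.37, 95% interval -2.76 to -1.23), a 3.99-fold lower level, with an adjusted p of 0.000426 in limma over 22103 clusters. Of all clusters, 65 had a lower value in this comparison. The SE of 0.37 pools the spread within all 6 groups. Nos2 spread less outside neutrophils, down to an SD of 0.15 in WT and 0.14 in KO microglia. The call ended when only the neutrophil arrays, and so only their spread, were fitted (-2.00, adjusted p = 0.0670).

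Outside neutrophils, Nos2 was low. It read 5.28, 6.47 and 5.75 in WT macrophages, and from 4.55 through a median of 5.37 to 5.81 in KO macrophages. In WT microglia it ran from 5.05 through a median of 5.15 to 5.46, and in KO microglia from 4.76 through 5.02 to 5.14. The table gives no detection call, so the odorant receptor genes, which these cells are not known to use, were taken after the values were seen as a description of dim probe sets. The 5th and 95th percentiles of the mean log2 levels of 1080 such genes were 4.03 and 6.75 in WT microglia, 3.89 and 6.40 in WT macrophages and 3.92 and 6.52 in KO macrophages. The group means of Nos2 in macrophages and microglia lay within such ranges and cannot be told apart from dim background here, although WT macrophage array 2 (6.47) lay just above, whereas in WT and KO neutrophils its mean exceeded those of 99.8% and 99.2% of these genes. The change with genotype was -0.55 in macrophages (SE 0.40, adjusted p = 0.998) and -0.18 in microglia, neither past the threshold.

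The fall of Nos2 in KO neutrophils was also set against the change in the other cells. The change with genotype in neutrophils was 1.81 log2 units more negative than in microglia (SE 0.49, adjusted p = 0.0272 in limma), where 5.79% of all clusters passed. Because Nos2 in microglia was already at the level of dim probe sets, a fall of this size could not have been seen there, and the difference does not show that microglia respond otherwise. Against macrophages the difference of changes was -1.45 (SE 0.54, adjusted p = 0.0970), which did not pass, in a comparison where 6.87% of clusters did. The group means of Nos2 in macrophages lay in the dim range too, which limits this difference in the same way. Between macrophages and microglia no cluster differed in its change (0%), and the difference for Slc7a2 was -1.16 (adjusted p = 1.00). The result against microglia ended when any of WT neutrophil arrays 2 (-1.56, adjusted p = 0.0619) or 3 (-1.74, 0.0531), or KO neutrophil arrays 1 (-1.62, 0.0668), 3 (-1.59, 0.0600) or 4 (-1.62, 0.0620) was left out, and with only the arrays compared (-1.81, 0.0534).

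Arg1, which encodes cytosolic arginase 1, was bright in neutrophils and macrophages and did not pass a test of genotype in any cell type. It read 15.70, 15.35, 15.50 and 14.29 in WT neutrophils and 16.27, 15.48, 16.14, 16.36 and 15.95 in KO neutrophils. All 5 KO arrays lay above the WT mean of 15.21 ± 0.63 (SD, n = 4), and array 4 of WT neutrophils was lower than the others. The log2 difference was 0.84 with a 95% interval of -0.58 to 2.25 (SE 0.69, adjusted p = 0.405), so that changes of either sign lay within it. The SE pools the spread within all 6 groups. Arg1 had an SD of 0.35 in KO neutrophils but of 1.70 in WT and 1.60 in KO microglia. The interval is thus not that of the neutrophil arrays alone. Over 11 other settings the lowest adjusted p in limma was 0.120. In macrophages Arg1 read 14.85, 16.30 and 15.83 in WT arrays and from 15.83 through a median of 15.96 to 16.18 in KO arrays, a difference of 0.33 (SE 0.73, adjusted p = 0.998) that turned to -0.076 without WT macrophage array 1.

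In microglia Arg1 spread more widely between arrays of the same genotype than in the other 4 groups, where its SD was 0.13 to 0.74. WT microglia read 6.53, 9.21, 10.91, 7.58, 10.63 and 8.75 on arrays 1 to 6, with an SD of 1.70, and KO microglia read 7.42, 8.38, 7.11, 7.46, 10.94 and 10.12, with an SD of 1.60. High and low arrays occurred in both genotypes and the groups overlapped over almost their whole range. The difference was -0.36 (95% interval -1.58 to 0.86, adjusted p = 1.00), and was 0.033 without WT microglia array 3. Every microglia array but WT array 1 lay above the 95th percentile of the odorant receptor genes, which was 6.75 in WT and 6.74 in KO microglia.

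**Figure D1:**
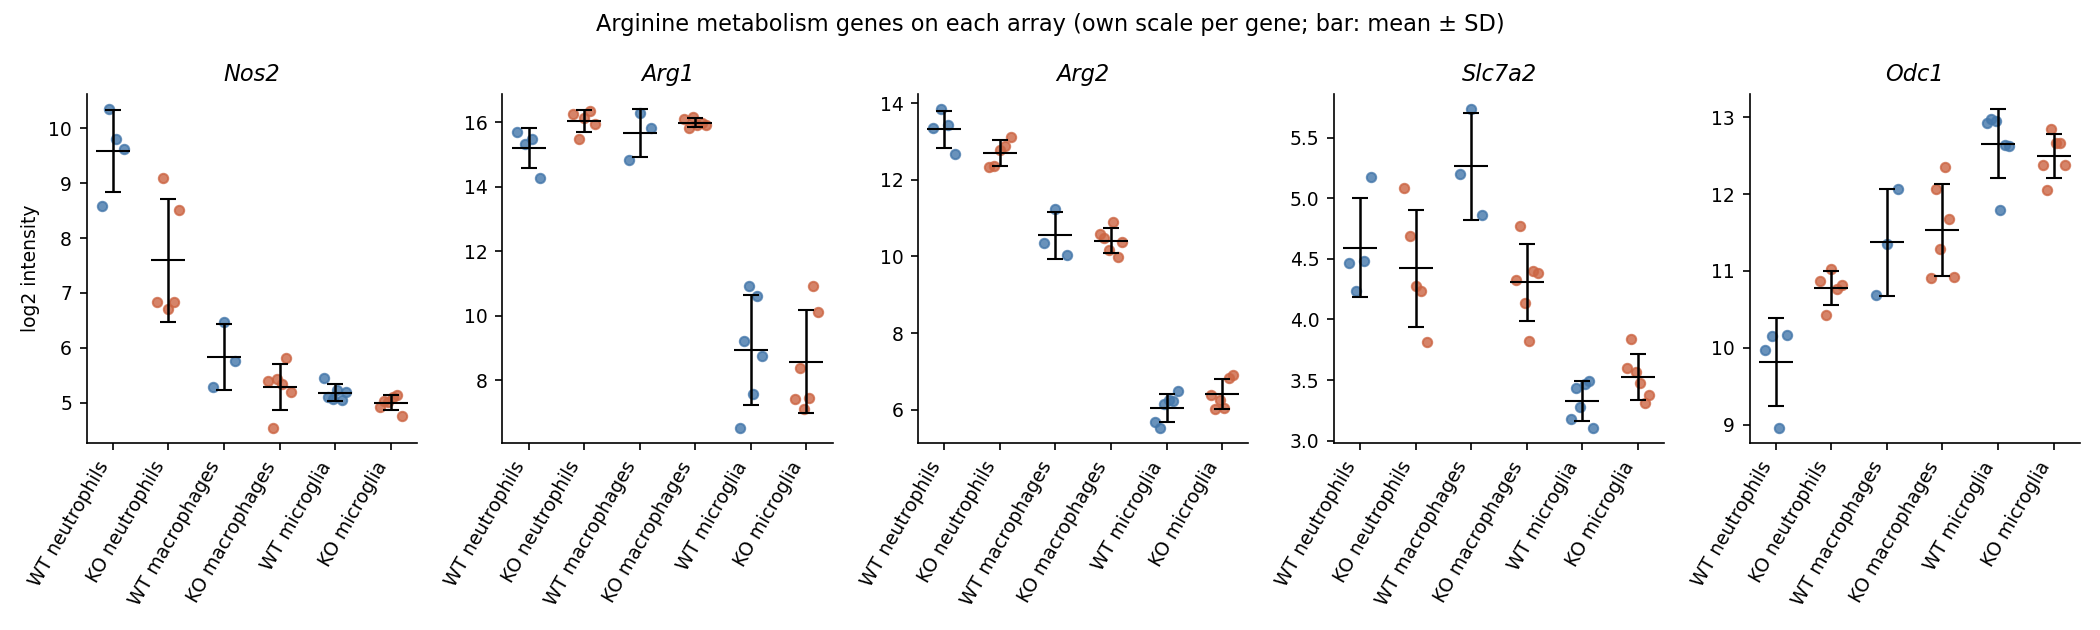
Log2 intensity of Nos2, Arg1, Arg2, Slc7a2 and Odc1 on each of the 30 arrays (points) by genotype and cell type, with the mean and SD of each group as bars and a separate vertical scale for each gene. Nos2 falls from WT to KO neutrophils, Arg1 and Arg2 are far lower in microglia than in the infiltrating cells, and Odc1 runs the other way.

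Both ways of using arginine were set against each other on the same array as the log2 intensity of Nos2 minus that of Arg1, which removes any scaling of the array. The size of this value has no meaning of its own, because probe sets of different genes share no scale, and only differences between groups were read, with no test. In WT neutrophils it was -7.12, -5.00, -5.69 and -4.66, and in KO neutrophils -9.44, -6.39, -9.44, -9.53 and -7.44. KO neutrophils thus had a mean 2.83 log2 units lower than WT neutrophils (-8.45 ± 1.45 against -5.62 ± 1.09, SD), with overlap through WT array 1 and KO array 2. Nos2 contributed -2.00 and Arg1 0.84 to this shift. In macrophages and microglia the value is dim Nos2 signal minus Arg1, so no rank and no difference is read there. It was -9.83 ± 0.25 (SD, n = 3) in WT macrophages and -10.71 ± 0.35 (SD, n = 6) in KO macrophages. In microglia the values spread from -5.85 to -1.07 in WT and from -5.79 to -2.10 in KO, a spread that followed Arg1.

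**Figure D2:**
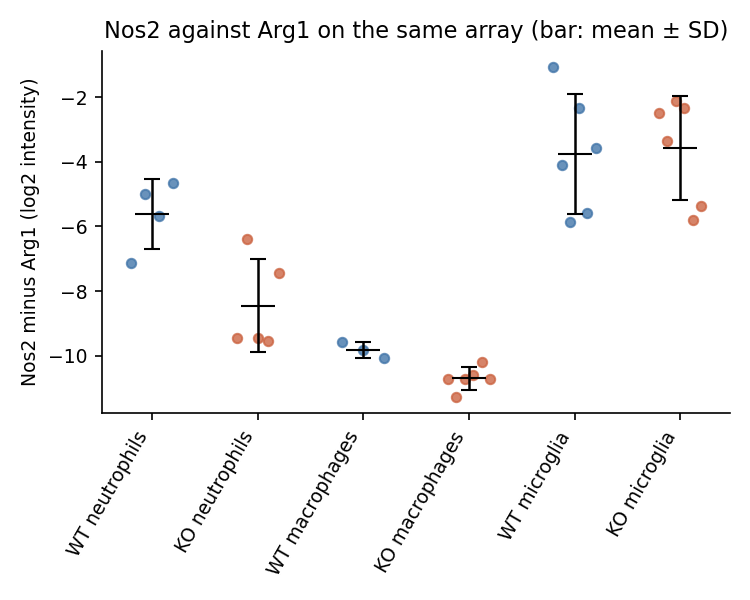
Log2 intensity of Nos2 minus that of Arg1 on each array (points) by genotype and cell type, with the mean and SD of each group as bars. KO neutrophils (mean -8.45) lie below WT neutrophils (mean -5.62), the values in macrophages and microglia rest on dim Nos2 signal, and the microglia spread widely in both genotypes.

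Arg2, the mitochondrial arginase, was graded across the cell types, highest in neutrophils and lowest in microglia. It read 13.35, 13.83, 13.42 and 12.67 in WT neutrophils and 12.33, 12.35, 12.78, 12.88 and 13.13 in KO neutrophils. Each of the 5 KO arrays was under the WT average of 13.32, but the groups overlapped through WT array 4. The log2 difference of -0.62 (SE 0.26, 95% interval -1.16 to -0.09) had an adjusted p of 0.0879 in limma and did not pass. It passed without WT neutrophil array 4 (-0.84, adjusted p = 0.0358) and after quantile normalization over all arrays (-0.72, adjusted p = 0.0326). Macrophages read 10.36, 11.24 and 10.05 in WT and from 9.98 through a median of 10.43 to 10.91 in KO. Microglia ran from 5.54 through 6.19 to 6.48 in WT and from 6.03 through 6.32 to 6.92 in KO. The means of Arg2 in microglia, 6.05 and 6.41, lay below the 95th percentiles of the dim odorant receptor probe sets, 6.75 in WT and 6.74 in KO, but KO arrays 5 and 6 (6.83 and 6.92) lay above.

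Slc7a2, which encodes the cationic amino acid transporter CAT2 that brings arginine into the cell, was dim on every array. It read 4.47, 4.23, 4.48 and 5.18 in WT neutrophils and 5.09, 4.69, 4.28, 4.24 and 3.81 in KO neutrophils, which overlapped, and the difference of -0.17 (SE 0.22, adjusted p = 0.613) turned to 0.027 without WT neutrophil array 4. In macrophages it read 5.20, 5.73 and 4.86 in WT arrays and 4.33, 4.77, 4.13, 3.82, 4.40 and 4.38 in KO arrays. Every KO macrophage array lay below every WT array, as was the case for 2.92% of all clusters in this comparison. The difference was -0.96 (SE 0.23, 95% interval -1.43 to -0.48), with an unadjusted p of 0.000299 and an adjusted p of 0.448 in limma, so it did not pass. In microglia it ran from 3.11 to 3.84 over both genotypes. All of these levels lay within the range of the dim odorant receptor probe sets or below it, so the order of groups for Slc7a2 rests on values that may be background.

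Odc1, which encodes ornithine decarboxylase and so uses the ornithine that arginases release, was higher in KO than in WT neutrophils. It read 9.97, 10.15, 8.96 and 10.17 in WT neutrophils and 10.86, 10.42, 11.02, 10.76 and 10.82 in KO neutrophils. Every KO array exceeded every WT array, which held for 11.4% of all clusters, and array 3 of WT neutrophils was lower than the others. The log2 difference was 0.96 (SE 0.30, 95% interval 0.35 to 1.58), a 1.95-fold higher level, with an adjusted p of 0.0245 in limma. The call ended without WT neutrophil array 3 (0.68, adjusted p = 0.129), KO array 1 (0.94, 0.0527) or KO array 3 (0.90, 0.0546), after quantile normalization over all arrays (0.66, 0.119) and with only the neutrophil arrays fitted (0.96, 0.0618). In macrophages Odc1 read 10.69, 11.36 and 12.07 in WT arrays and from 10.91 through a median of 11.48 to 12.35 in KO arrays. Microglia held the highest levels, from 11.80 through 12.78 to 12.98 in WT and from 12.06 through 12.52 to 12.85 in KO. The change with genotype in neutrophils exceeded that in microglia by 1.12 (adjusted p = 0.0888) and that in macrophages by 0.80 (adjusted p = 0.254), and neither difference passed.

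Over the 5 genes, 1 rose and 1 fell in KO neutrophils, beside 10.7% of all clusters called higher and 9.14% called lower (19.9% in all). With 5 genes this count is no result about the group as a whole. In macrophages none of the 5 passed, where 1 cluster of all passed (0.00452%), and at an unadjusted p under 0.05 1 of the 5 genes and 4.66% of clusters did. In microglia none passed, where no cluster did (0%), and 2.92% of clusters had an unadjusted p under 0.05. Each adjusted p in those cell types therefore says little about a single gene, and the intervals are the better guide. For Nos2 the 95% interval was -1.36 to 0.26 in macrophages and -0.84 to 0.47 in microglia. Its group means there lay in the dim range, where a fall could not be seen, so these intervals do not bound a fall.

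**Figure D3:**
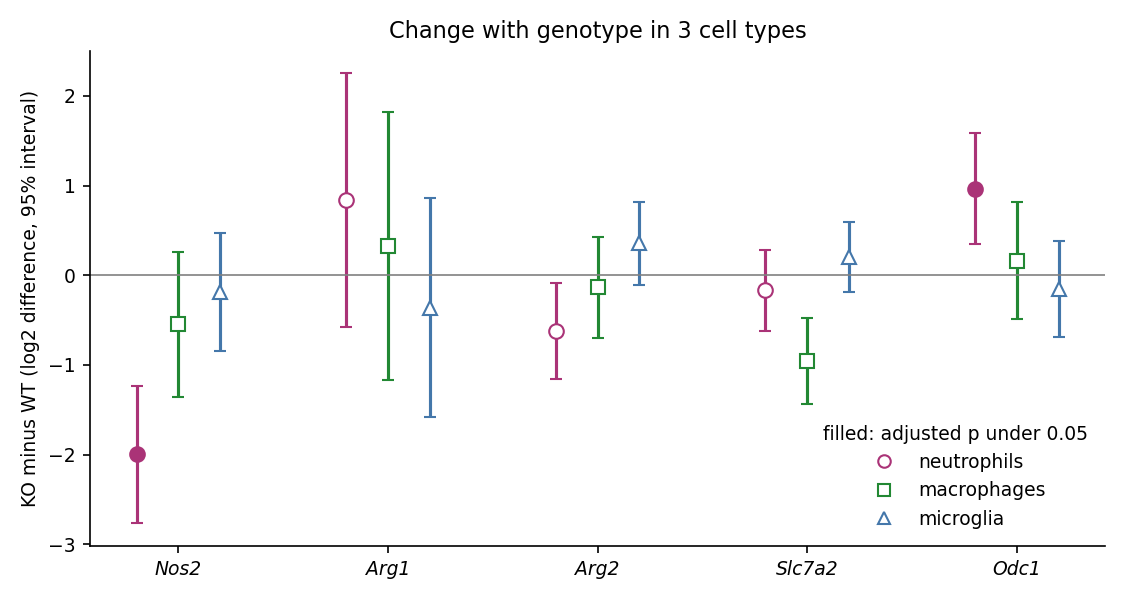
Log2 difference between KO and WT for each of the 5 genes in neutrophils, macrophages and microglia, with 95% intervals from limma and filled symbols for an adjusted p under 0.05. In neutrophils Nos2 (-2.00) and Odc1 (0.96) are filled, and no symbol is filled in the other cell types.

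Markers of monocytes and macrophages moved with genotype in the neutrophil arrays. Of 9 measured monocyte and macrophage markers, 6 passed as higher and none as lower in KO neutrophils, beside 10.7% and 9.14% of all clusters. Their median log2 difference was 1.43, and their mean level was 12.79 to 13.52 in KO arrays against 11.89 to 12.80 in WT arrays. Of 8 microglial markers none passed as higher and 1 as lower, of 5 border-associated macrophage markers 1 and 1, and of 5 dendritic cell markers none. Of 11 neutrophil markers, 2 passed as lower, beside 9.14% of all clusters, and none had a positive difference, with a median of -0.76. The macrophages themselves had a marker mean of 15.13 in WT arrays, Nos2 at 5.83 and Odc1 at 11.37, so Nos2 was lower and Odc1 higher in macrophages than in WT neutrophils, as they were in KO neutrophils. Within KO neutrophils Nos2 did not order by the macrophage or by the neutrophil markers. Array 2 (Nos2 at 9.09) had the lowest macrophage marker mean, 12.79, and array 5 (Nos2 at 8.51) the highest, 13.52. The neutrophil marker means of KO arrays 1 to 5 were 12.94, 13.73, 13.38, 14.15 and 13.74. Nos2 on the same arrays read 6.83, 9.09, 6.70, 6.83 and 8.51. Within WT neutrophils Nos2 rose over arrays 1, 4, 3 and 2, at 8.58, 9.63, 9.81 and 10.35. Both marker means took that same order, at 13.61, 13.84, 14.33 and 16.47 for neutrophil markers and 11.89, 12.04, 12.61 and 12.80 for macrophage markers. A set called broadly expressed genes here also differed. It held the 2015 clusters with a log2 level of at least 11 in every macrophage and microglia array. Their WT means in those cell types were also less than 1 apart. Neutrophil arrays had no part in choosing the set. Its median log2 level was 12.42 to 12.91 in WT neutrophils and 12.85 to 13.21 in KO neutrophils. In the macrophage and microglia arrays it was 13.26 to 13.49. With that median as a covariate, the log2 difference of Nos2 was -1.38 (adjusted p = 0.174) and that of Odc1 0.60 (adjusted p = 0.603), neither past the threshold. Since the median itself differed with genotype in neutrophils and with cell type, this fit also takes out part of those differences. A call lost in it therefore cannot be assigned to the covariate or to genotype. Beyond that fit, the part of these markers and levels in the changes of Nos2 and Odc1 was not tested. In sorted populations measured in bulk, fewer cells of a type and less RNA per cell cannot be told apart.

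Across cell types, both arginases separated the infiltrating cells from microglia. Against WT microglia, Arg1 was higher by 6.27 in WT neutrophils (SE 0.67, adjusted p = 4.11e-09) and by 6.73 in WT macrophages (SE 0.73, adjusted p = 1.48e-08), and Arg2 by 7.27 (SE 0.25) and 4.50 (SE 0.28). The Arg2 differences are lower bounds on the change, since its mean in microglia lay in the dim range. Neutrophils and macrophages did not pass as different in Arg1, at -0.45 in WT (SE 0.79, 95% interval -2.07 to 1.16, adjusted p = 0.647) and 0.050 in KO (adjusted p = 0.962). That SE pools all 6 groups, with SDs of 1.70 and 1.60 in microglia beside 0.63 and 0.74 in WT neutrophils and macrophages. Over 11 other settings the lowest adjusted p in limma was 0.441 in WT and 0.396 in KO. Arg2 did differ between neutrophils and macrophages, higher in neutrophils by 2.77 in WT (SE 0.30, adjusted p = 1.94e-08) and by 2.28 in KO (SE 0.24). The levels of Arg1 thus fell into 2 blocks, the 4 groups of infiltrating cells and the 2 groups of microglia, and neighbouring groups inside a block overlapped. For Arg2 there were 3 blocks, neutrophils, macrophages and microglia, again with overlap between the genotypes inside each.

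Nos2 separated neutrophils from the rest. It was higher in WT neutrophils than in WT microglia by 4.41 (SE 0.36, adjusted p = 2.48e-11) and than in WT macrophages by 3.75 (SE 0.43), and in KO cells by 2.59 (SE 0.34) and 2.31 (SE 0.34), all past the threshold with groups that did not overlap, as was the case for 35.8%, 45.4%, 29.3% and 21.3% of all clusters in these comparisons. WT macrophages exceeded WT microglia by 0.65 (SE 0.39, adjusted p = 0.201), which did not pass, but it passed when each array was centred on its median (1.06, adjusted p = 0.0347). Since Nos2 lay in the dim range outside neutrophils, the differences from macrophages and microglia are lower bounds. Even the KO neutrophils, where Nos2 was reduced, stood above every macrophage and microglia array.

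Odc1 ran in the opposite order, from microglia down to neutrophils. It was lower by 2.84 on the log2 scale in WT neutrophils than in WT microglia (SE 0.29, adjusted p = 2.04e-09), with a difference of -1.28 for WT macrophages against microglia (SE 0.32, adjusted p = 0.0021) and -1.56 for WT neutrophils against macrophages (SE 0.34). In KO cells the corresponding differences were -1.72, -0.96 and -0.76, the last with an adjusted p of 0.0343. The difference between KO macrophages and microglia did not pass when each array was centred on its median (-0.60, adjusted p = 0.0684). The call between KO neutrophils and macrophages ended without KO neutrophil arrays 2, 4 or 5 or KO macrophage arrays 2, 4 or 5, at adjusted p from 0.0550 to 0.1004, after quantile normalization over all arrays (-0.45, 0.215) and with broadly expressed genes as a covariate (-0.46, 0.394). Slc7a2 was higher in WT neutrophils and WT macrophages than in microglia by 1.26 (SE 0.21) and 1.94 (SE 0.23), on levels that may be background.

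In counts, all 5 genes passed between WT neutrophils and WT microglia (4 higher and 1 lower), where 54.3% of all clusters did (22.0% higher and 32.3% lower). Between WT macrophages and WT microglia 4 passed (3 higher and 1 lower), beside 37.5% of clusters (9.62% higher and 27.9% lower). Between WT neutrophils and WT macrophages 4 passed (2 higher and 2 lower), beside 51.6% of clusters (29.6% higher and 22.0% lower). Slc7a2 among these last had a log2 difference of -0.67 (adjusted p = 0.0264), a call that ended without WT neutrophil arrays 1, 2 or 3 or WT macrophage array 2, at adjusted p from 0.0525 to 0.190. The KO cells gave 5, 4 and 3 calls in the same order, beside 45.0%, 43.3% and 31.7% of clusters. The balance of calls over all clusters moved with the scaling of the arrays. Higher calls made up 40.6% of calls between WT neutrophils and microglia, 25.7% between WT macrophages and microglia and 57.4% between WT neutrophils and macrophages as deposited, and 51.6%, 66.5% and 38.7% with each array centred on its median. In KO cells these shares were 28.8%, 27.4% and 50.1% as deposited and 55.0%, 65.5% and 38.6% when centred. The share in KO against WT neutrophils was 54.0% as deposited and 71.6% when centred. The median log2 difference of all clusters between WT macrophages and microglia was -0.25 as deposited and 0.15 when centred. None of these scalings turned the direction of a called difference of the 5 genes.

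Other genes of arginine use were read from 9 lists with functions around the 5 genes. In KO neutrophils 17 of the 76 measured list genes passed, 13 higher and 4 lower, and none passed in macrophages or microglia, where the backgrounds were 0.00452% and 0%. The 17 calls are 22.4% of the list genes, near the 19.9% of all clusters. With broadly expressed genes as a covariate 15 of the 17 did not pass, the exceptions being Oaz2 and Tgfb1. Their median itself differed between WT and KO neutrophils, so here and below that fit cannot separate the covariate from genotype.

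Among carriers of arginine and related amino acids, 3 of 8 rose in KO neutrophils and none fell, beside 10.7% and 9.14% of all clusters. Their median log2 difference was 0.79, beside -0.13 over all clusters. Slc7a7, the light chain of a transporter that exports cationic amino acids, rose by 2.14 (SE 0.31, adjusted p = 2.62e-05), from a level of 9.75 ± 0.94 (SD, n = 4) to 11.90 ± 0.41 (SD, n = 5), beside 13.15 in WT macrophages and 13.35 in WT microglia. With broadly expressed genes as a covariate it did not pass (0.94, adjusted p = 0.118). Its partner chain Slc3a2 rose by 0.79 (adjusted p = 0.0225) and the lysosomal arginine sensor Slc38a9 by 1.69 (adjusted p = 0.0263). Slc3a2 did not pass without WT neutrophil arrays 2, 3 or 4 or KO arrays 1 or 3 (adjusted p from 0.0587 to 0.0919), and Slc38a9 without WT arrays 3 or 4 or KO arrays 4 or 5 (0.0506 to 0.150). Slc7a1, the arginine importer CAT1, had a difference of 0.79 (adjusted p = 0.0649) and passed without WT array 1 or KO array 5 (0.0359 and 0.0246). Between WT neutrophils and microglia 6 of the 8 were lower (median -2.34) and none higher, where 32.3% of all clusters were lower and 22.0% higher, with Slc7a1 at -3.51 and Slc7a7 at -3.60. Between WT macrophages and microglia 1 of 8 passed, where 37.5% of all clusters did. It was Slc7a1 at -0.81 (adjusted p = 0.0472), a call that ended in 15 of the 30 fits with an array left out.

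Of 10 genes of citrulline and nitric oxide metabolism, 2 rose in KO neutrophils and none fell, beside 19.9% of all clusters called, with a median of -0.089. Nostrin, which traffics endothelial nitric oxide synthase, rose by 1.46 (SE 0.34, adjusted p = 0.00339), but did not pass with the covariate (0.54, 0.658) or with only the neutrophil arrays (0.0631). Ddah2, related to the enzyme that clears methylarginine inhibitors of nitric oxide synthase, rose by 0.93 (adjusted p = 0.0277), but did not pass without WT neutrophil arrays 2 or 4 or KO arrays 2 or 3 (0.0618 to 0.135). Ddah2 was far lower in WT neutrophils and macrophages than in microglia, at -3.74 and -3.32, and Nostrin was highest in WT macrophages, 2.69 above microglia. Asl, which rebuilds arginine from citrulline together with the product of Ass1, did not pass in KO neutrophils (-0.014, adjusted p = 0.980).

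Nitric oxide synthases need the cofactor tetrahydrobiopterin, and none of its genes passed as lower in KO neutrophils. Gch1, the rate-limiting enzyme of its synthesis, had a difference of 0.12 in KO neutrophils (SE 0.27, adjusted p = 0.777), at a level of 12.70 ± 0.91 in WT and 12.83 ± 0.26 in KO. Of the 6 measured genes of the list, 2 rose and none fell (median 0.31), beside 10.7% of all clusters called higher and 9.14% lower. Sepiapterin reductase Spr rose by 0.69 (adjusted p = 0.0376) and Qdpr, which recycles the cofactor, by 1.48 (adjusted p = 0.0421). Spr did not pass without WT neutrophil arrays 3 or 4 or KO arrays 1, 2, 3 or 4 (0.0509 to 0.170), nor Qdpr without WT arrays 2, 3 or 4 or KO arrays 1, 2, 3 or 4 (0.0538 to 0.112). Across WT cells Gch1 was higher than in microglia by 1.68 in neutrophils (SE 0.26, adjusted p = 2.82e-06) and by 2.38 in macrophages (SE 0.28, adjusted p = 9.12e-08).

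Downstream of ornithine, 2 of the 13 measured polyamine genes rose in KO neutrophils and 1 fell, a share near the 19.9% of all clusters. Srm, spermidine synthase, rose by 2.32 in KO neutrophils (SE 0.50, adjusted p = 0.00175), from 9.27 ± 1.36 to 11.59 ± 0.81, and Dhps, which uses spermidine to modify the translation factor eIF5A, by 1.30 (SE 0.28, adjusted p = 0.00196). Oaz2, an antizyme that inhibits ornithine decarboxylase and sends it to the proteasome, fell by 1.15 on the log2 scale (SE 0.29, adjusted p = 0.00564). The other 10 of the 13 measured genes did not pass, among them spermine synthase Sms (0.84, adjusted p = 0.0542) and Sat1 (-0.12) and Smox (-0.41) of polyamine breakdown, and the median of the list was 0.10. Sms passed without WT neutrophil array 4, KO neutrophil array 2 or WT macrophage arrays 2 or 3 (0.0182 to 0.0453). In fits of the neutrophil arrays alone Srm (adjusted p = 0.0586) and Oaz2 (0.0552) did not pass, and with the covariate neither did Srm (0.45, adjusted p = 0.810) nor Dhps (0.18, 0.870). In WT cells Srm ran in the order of Odc1, from 9.27 in neutrophils through 11.98 in macrophages to 14.13 in microglia. Srm had a difference of -4.86 between neutrophils and microglia (SE 0.48, adjusted p = 1.13e-09), which did not pass with the covariate (-1.55, 0.127), and Oaz2 was 2.35 higher in neutrophils than in macrophages. Of the 13, 8 were lower in WT neutrophils than in microglia and 1 higher, beside 32.3% and 22.0% of all clusters. Sat2, annotated as a homologue of the acetyltransferase Sat1, was lower than in microglia in neutrophils (-3.96) and macrophages (-4.42).

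Of 5 measured genes that lead from ornithine and arginine to proline and creatine, Gatm rose in KO neutrophils and none fell, with a median of 0.42. This 1 call among 5 genes is near the 19.9% of all clusters called. Gatm, which starts creatine synthesis from arginine and glycine, rose by 1.27 (adjusted p = 0.0377), but did not pass without WT neutrophil arrays 2 or 3 or KO arrays 1, 2, 3 or 4 (0.0542 to 0.209). It was lower in WT neutrophils (-4.38) and macrophages (-2.64) than in microglia. Oat, which shares ornithine with Odc1, had a difference of 0.33 in KO neutrophils (adjusted p = 0.329).

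**Figure D4:**
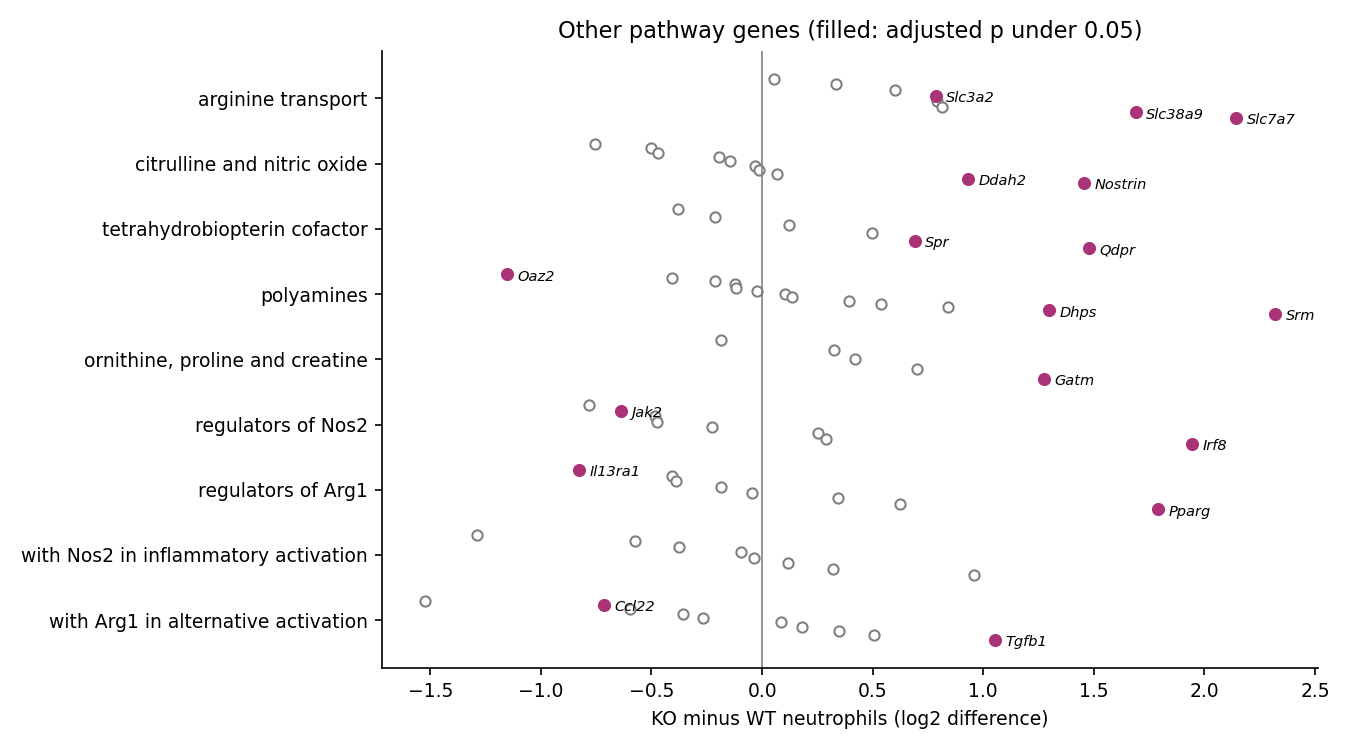
Log2 difference between KO and WT neutrophils for each measured gene of the 9 pathway lists, with filled points and names for an adjusted p under 0.05 in limma. Of the 17 filled genes 13 lie above 0, with Srm (2.32), Slc7a7 (2.14) and Irf8 (1.95) farthest to the right, and Oaz2 (-1.15) farthest to the left among those that passed.

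Of the regulators of Nos2 and of Arg1, 2 of 8 passed in each list, near the 19.9% of all clusters. Among 8 measured regulators of Nos2, Irf8, an interferon-responsive factor that defines the monocyte lineage, rose by 1.95 in KO neutrophils (SE 0.30, adjusted p = 5.46e-05), and the kinase Jak2 fell by 0.64 on the log2 scale (adjusted p = 0.0270), with a median of -0.35 over the list. Jak2 did not pass without WT neutrophil arrays 2 or 3 or KO arrays 1 or 3 (0.0628 to 0.1003). Irf1, needed for Nos2 induction by interferon, had a difference of -0.78 (adjusted p = 0.0645) and Tlr4 of -0.47 (adjusted p = 0.251). Irf1 passed without WT neutrophil array 1 or KO arrays 4 or 5 (0.0102 to 0.0374). Among 8 regulators of Arg1, Pparg rose by 1.79 (SE 0.33, adjusted p = 0.000325), from 5.42 ± 0.21 to 7.21 ± 0.74, and Il13ra1, a receptor chain for interleukins 4 and 13, fell by 0.83 on the log2 scale (SE 0.21, adjusted p = 0.00754), while Stat6 (-0.19) and Il4ra (-0.046) did not pass. The median of that list was -0.12. Irf8 and Pparg were higher in WT macrophages than in WT neutrophils, Irf8 with 10.60 against 7.52 and Pparg with 8.01 against 5.42. In KO against WT neutrophils 6 of 9 monocyte and macrophage markers also rose, beside 10.7% of all clusters. Any relation of the rises of Irf8 and Pparg to those markers was not tested. With the covariate Irf8 (1.47, adjusted p = 0.0588), Pparg (1.29, 0.139) and Il13ra1 (-0.74, 0.242) did not pass. In WT cells 4 regulators of Nos2 were higher and 2 lower in neutrophils than in microglia, and 6 regulators of Arg1 were higher and 1 lower. Of all clusters 22.0% were higher and 32.3% lower in that comparison.

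Of 8 genes usually reported with Nos2 in inflammatory activation, none passed in KO neutrophils (median -0.066), where 19.9% of all clusters did. Among them were Tnf (-1.29, SE 0.66, adjusted p = 0.166), Il1b (-0.38, adjusted p = 0.549), Ptgs2 (0.12, adjusted p = 0.834) and Cxcl9 (-0.57, adjusted p = 0.0694). Cxcl9 passed without WT neutrophil arrays 2 or 3 or KO array 3 (0.0376 to 0.0419). Of 10 genes reported with Arg1 in alternative activation, Tgfb1 rose by 1.05 (SE 0.30, adjusted p = 0.0144) and the chemokine Ccl22 fell by 0.72 on the log2 scale (adjusted p = 0.0238), with a median of -0.093. Tgfb1 did not pass after quantile normalization over all arrays (0.80, adjusted p = 0.0856) or within cell types (0.86, 0.0656). Ccl22 did not pass without WT neutrophil array 4 (-0.42, adjusted p = 0.177) or KO array 1 (-0.62, 0.0751). The chitinase-like Chil3 had a difference of -1.52 (adjusted p = 0.0527) and passed without WT neutrophil array 1 (-1.71, 0.0407) or KO array 2 (-1.75, 0.0367), and with WT microglia array 3 or KO microglia arrays 1, 2 or 3 left out (0.0248 to 0.0437). In WT cells the genes reported with Nos2 gave 2 higher and 3 lower calls in neutrophils against microglia, and those reported with Arg1 4 higher and 1 lower. Of all clusters 22.0% were higher and 32.3% lower there (54.3% in all). Beside 9.62% of all clusters higher and 27.9% lower, macrophages against microglia gave 2 higher and 1 lower and 7 higher and 0 lower calls for these lists. The sizes were large for members of both, with Il1b above microglia by 8.37 in neutrophils and 6.03 in macrophages, Ptgs2 by 4.52 in neutrophils, and Chil3 by 10.39 and 10.48.

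The genes whose pattern over the 30 arrays was most like that of Nos2 were Rdh12, Rnd1, Adam19, Crispld2 and Dpep3, with Pearson r from 0.953 to 0.972 among 11053 genes searched. Each was highest in WT neutrophils and lower in KO neutrophils, as with Rdh12 at 13.50 in WT and 10.89 in KO. For Arg1 they were Cfp, Emb, Thbs1, Emilin2 and Pirb (r from 0.969 to 0.980), for Arg2 Mcemp1 and Slfn4 (both 0.987), for Slc7a2 Napsa (0.828) and Ikbke (0.825), and for Odc1 Nagpa (0.941) and Kdelr2 (0.932). These r values are a description over arrays that share their cell types. With Spearman's rank correlation 0 of these names recurred among the same number of top genes for any of the 5, so the names depend on the measure. The closest by rank were Defb8 for Nos2, Pf4 for Arg1, Slfn1 for Arg2, Abcg3 for Slc7a2 and Mybbp1a for Odc1.

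The spread of Arg1 among microglia was set beside the markers of other myeloid cells, a relation examined after the values were seen. Over the 12 microglia arrays Arg1 had a Pearson r of 0.504 with the mean of the monocyte and macrophage markers (permutation p = 0.092, 0.308 after Benjamini-Hochberg adjustment over 10 relations) and a Spearman rho of 0.385 (permutation p = 0.219, adjusted 0.512). Without the 2 arrays farthest from the median marker level r was 0.131, so the pooled relation rests on those arrays. Within WT microglia r was 0.313 (exact permutation p = 0.576) and within KO microglia 0.901 (exact permutation p = 0.006, unadjusted), or 0.782 over the 4 KO arrays left without the 2 farthest. With neutrophil markers r was -0.155 (permutation p = 0.710, adjusted 0.788), and KO microglia array 2, with the highest neutrophil marker mean, read 8.38 for Arg1, below arrays 5 and 6. After each genotype was centred on its mean, the genes most like Arg1 in microglia were Dpep2 (r = 0.943, n = 12), Hmgn3 (0.937) and the chemokines Ccl9 (0.877) and Ccl6 (0.863).

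**Figure D5:**
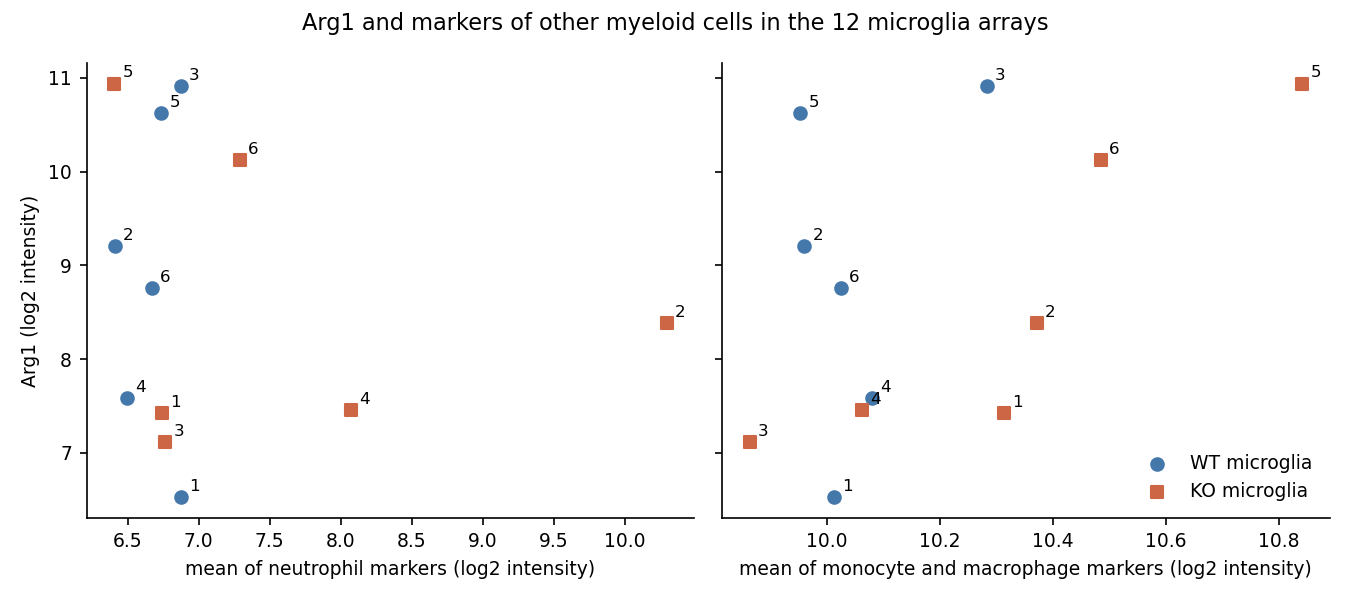
Log2 intensity of Arg1 in the 12 microglia arrays (points, with replicate numbers) against the mean log2 level of neutrophil markers (left) and of monocyte and macrophage markers (right). High Arg1 occurs in both genotypes, and KO array 2, with a neutrophil marker mean of 10.30, is not among the highest for Arg1.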

How the data were processed

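The deposited table holds 1 intensity per transcript cluster and array on a linear scale, summarised by the authors with RMA, per the submitters' processing notes; the version and genome build are not given in the sources used here, and no coordinates are printed. Log2 of these intensities was taken, with no further scaling and no filter. Symbols came from GEO's platform annotation: 19508 of 22103 clusters had 1 symbol and 2595 had none or several. limma was used to fit the mean of each group over all 30 arrays together (version 3.58.1, R 4.3.3, 24 residual degrees of freedom), with 12 comparisons and Benjamini-Hochberg adjustment over all clusters of each. Each cluster had 1 estimate of spread, shared by the 6 groups. A call is an adjusted p under 0.05. The code was tested on simulated data.

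Named were the 6 genes; of each list up to 4 genes with the smallest p in KO against WT neutrophils and up to 2 in each WT cell type comparison; and for each gene the highest Pearson r (5 for Nos2 and Arg1, 2 for the others). Asl, Sat1, Smox, Il4ra and the genes like Arg1 within microglia were named after their values were seen. Genes and lists were chosen with earlier results of these data known. Replicate numbers gave no clear pairing of the samples (r from -0.202 to 0.261 over 64 same-number pairs, 8 of them over 0.1). Whether arrays of different cell types shared animals under other numbers was not tested. The main fit treated all arrays as independent. The alternatives were 41 settings: the arrays weighted, centred on their medians or quantile normalized (together or by cell type), a variance trend with a robust prior, the dimmest 25% of clusters dropped, 1 cluster per gene, only the arrays compared, a replicate block, a covariate, KO microglia 2 and 4 left out, and each array left out in turn. Ly6g was not analysed here.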

Additional observations from a re-analysis of the deposited data

Results flagged for a closer look

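A lone array was looked for in 30 sets of values, the 5 genes and Nos2 minus Arg1 in each of the 5 groups with more than 3 arrays. It was found in 2, and chance gives about 1 in 20. Odc1 was 8.96 in WT neutrophil array 3 while the other arrays of the group read 9.97 to 10.17, and it was 11.80 in WT microglia array 4 while the others read 12.63 to 12.98.

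The change with genotype differed between cell types for Nos2 and for 10 of the 36 list genes looked at, in limma's test of the difference itself. For neutrophils against microglia the difference of log2 changes was -1.81 for Nos2 (adjusted p = 0.0272), -2.84 for Chil3 (0.0200), -0.94 for Il13ra1 (0.0457), 1.98 for Irf8 (0.00369), 1.59 for Pparg (0.0260), 2.17 for Slc7a7 (0.00233) and 2.28 for Srm (0.0373). For neutrophils against macrophages it was -1.08 for Cxcl9 (0.0428), 1.43 for Dhps (0.0355), 1.92 for Irf8 (0.0106), 1.65 for Nostrin (0.0415), 1.70 for Pparg (0.0292), 1.55 for Slc7a1 (0.0332) and 2.16 for Slc7a7 (0.00650). Chil3, Cxcl9 and Slc7a1 did not pass in KO against WT neutrophils alone. The list genes were chosen for a small p in KO against WT neutrophils, which is part of each of these differences, so their number is not set beside that of all clusters. Nos2 in microglia lay in the dim range, where a fall could not be seen.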

How the results depend on the processing

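The fall of Nos2 in KO neutrophils kept its direction in all 41 settings, from -2.37 to -1.75 with an array left out (highest adjusted p 0.00327) and -2.08 with the replicate block (adjusted p = 0.000422). It no longer passed with only the neutrophil arrays fitted (-2.00) or with broadly expressed genes as a covariate (-1.38). The first uses fewer samples and only the spread within neutrophils. There the SD of Nos2 was 0.74 in WT and 1.12 in KO, larger than the 0.15 and 0.14 in microglia. The covariate of the second itself differed between WT and KO neutrophils, and the cause of that lost call was not tested. In those fits 0 of the 5 genes passed in KO neutrophils, against 1 to 3 with an array left out. With the covariate 2 genes passed between WT neutrophils and WT macrophages. Of the 5 genes, 1 differed in its change between neutrophils and macrophages after quantile normalization over all arrays (0 to 2 with an array left out). Between neutrophils and microglia 2 did so after either quantile normalization, with array weights or without KO microglia 2 and 4, and 0 with only the arrays compared or the covariate (0 to 2 with an array left out).

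Signs turned only for differences that did not pass in that setting. Arg1 was -0.36 in KO against WT neutrophils, 1.76 in WT neutrophils against macrophages and -0.74 in the difference of these changes with the covariate, and -0.043 in KO neutrophils against macrophages with centred arrays. With array weights Slc7a2 was 0.034 in neutrophils and Odc1 -0.12 in macrophages. Gchfr in WT macrophages against microglia was 0.062 after quantile normalization and 0.072 with centred arrays. With the covariate Il1b was 0.027 and Spr -0.24 in KO neutrophils, and Spr 0.0051 in WT neutrophils against microglia. With an array left out the ranges that crossed 0 were -0.076 to 0.65 for Arg1 in macrophages, -0.84 to 0.033 for Arg1 in microglia, -0.031 to 0.19 for Arg1 in KO neutrophils against macrophages, -0.39 to 0.21 for Arg2 in macrophages, -0.34 to 0.027 for Slc7a2 in neutrophils, -0.052 to 0.27 for Slc7a2 in KO neutrophils against macrophages, -0.18 to 0.51 for Odc1 in macrophages and -0.023 to 0.67 for Odc1 in macrophages against microglia. Of the 17 list genes called in KO neutrophils, 15 did not pass with the covariate, 11 with only the arrays compared, 5 after quantile normalization and 0 to 6 with a neutrophil array left out. The replicate block changed 1 of 150 results, Aldh18a1 in WT neutrophils against macrophages (-0.71, adjusted p = 0.0574). The number of arrays, 3 in WT macrophages, limits these values. So does dim signal for Slc7a2 everywhere, for Nos2 in macrophages and microglia and for Arg2 in microglia.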
